A study of Mus musculus and Homo sapiens with 12 samples.

Results

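The genes described here are the 8 that encode the replication licensing machinery: MCM2, MCM3, MCM4, MCM5, MCM6 and MCM7, which are the 6 subunits of the replicative helicase, and CDC6 and CDT1, which load it onto DNA. They were picked by gene symbol, ignoring case, and all 8 were listed in both expression tables, 8 of 11513 human genes and 8 of 10430 mouse genes. Before S phase, the origin recognition complex marks a start site on DNA, CDC6 joins it, and CDT1 brings in the ring-shaped MCM complex, which stays inactive until S-phase kinases switch it on. Geminin and the destruction of CDT1 keep a site from being licensed again in the same cycle. In dividing mammalian cells most of these genes are transcribed around the passage into S phase under E2F factors, so their mRNA is widely used as a sign of proliferation.

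RNA was sequenced in 12 libraries, 2 per group, to examine T-cell acute lymphoblastic leukaemia (T-ALL) under block of NOTCH1 or under changed dietary valine. KOPTK1 is an established line of human T-ALL and was treated for 72 h with gSI, a gamma-secretase inhibitor (Compound E) that stops the cleavage which activates NOTCH receptors, or with DMSO. In the mouse experiment, C57BL/6 animals carrying secondary transplants of NOTCH-delta E tumours were kept for 3 weeks on diets labelled 0, 0.4, 0.8 or 8 g/kg valine, the last being the control. Leukaemic cells were sorted from the spleen by GFP. The protocol describes the intermediate diets as a valine-deficient diet with valine added to the drinking water, which does not match the g/kg unit of the sample labels. The mouse libraries are also named TALL2 or TALL3, 1 of each per diet, names that the labels leave unexplained. The labels do not say whether the libraries of a group came from separate cultures or animals, so p-values measure only the spread between these libraries. All 8 mouse libraries come from NOTCH-driven leukaemia, and the KOPTK1 libraries come from 1 line.

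Levels are given as FPKM, fragments scaled by gene length and library size, as deposited. Reads recovered from the steps between FPKM values came to 22939478 to 42245079 per human library and 14222895 to 37687253 per mouse library. The licensing genes were well covered, with 3186 to 23591 reads per gene in a human library and 970 to 40103 in a mouse library. In KOPTK1 the targets and markers of NOTCH signalling were low with gSI: HES1 had 0.0253 and 0.0431 FPKM with gSI and 6.72 and 6.18 FPKM with DMSO. All 14 tested genes of the T-ALL and thymocyte marker list fell with gSI, where 30.3% of all tested genes were called lower. Of the 16 markers listed in human, RAG1 and CD4 averaged under 1 FPKM and were not tested. RAG1 was lower with gSI, but CD4 was higher, at 0.715 and 0.788 FPKM with gSI and 0.625 and 0.501 FPKM with DMSO. In mouse, 14 such markers were listed, and they summed to 2116 to 3127 FPKM per library. A length recovered from the human values was 6045 bp for CDT1 and 36800 bp for MCM6, as long as whole genes with introns, so human levels are compared between groups and not between genes.

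Because the licensing genes are textbook E2F targets, their promoters were searched for E2F motifs, with RefSeq windows on GRCm38.p6 that run from 250 bases before to 50 bases after each start. Windows were found for 7 of the 8 mouse genes, all but Mcm4. The 7-letter motif searched was TTCCCGC. Matches to the related motif TTGGCGC were counted with it. So were matches to the motif TTCGCGC, and those to a further form, TTGCCGC. Both strands were read, and overlapping matches merge into longer runs. At least 1 motif stood in the windows of 6 of the 7 genes, all but Mcm2, against 9.57% of all 32851 windows. A stretch of 28 bases is printed for 4 of these 6 genes. It holds the gene's longest run, or the one nearest the start where runs tie. It reads 5′ to 3′ on the gene's strand with the motif in capitals. For Mcm6 both upstream runs are shown, since they hold the same 10 letters.
Mcm3 (chr1:20820263-20820290): ggaaaacttgggaagttTTGGCGCCAAg
Mcm6, nearer the start (chr1:128359733-128359760): tggacgggtTTGGCGCGAAgtagctcag
Mcm6, farther upstream (chr1:128359796-128359823): cgtatgcttTTGGCGCGAAaagtgcgtg
Mcm7 (chr5:138171848-138171875): tgacgacgtTTCGCGCCAAtttcggttg
Cdc6 (chr11:98908002-98908029): gccggtggagaGCGGGAAatcgcctggg
In Mcm3, Mcm6, Mcm7 and Mcm5 the run is 10 letters long, because a motif on each strand shares its middle letters, while Cdt1 holds 2 separate 7-letter motifs and Cdc6 a single one. The Mcm5 run lies 152 bases and the Cdc6 motif 138 bases before the RefSeq start. The Mcm7 run begins 18 bases after the more upstream of its 2 RefSeq starts. The Cdc6 span given further below comes from another annotation, GENCODE. It begins farther upstream, at chr11:98907801, so the Cdc6 motif lies inside that span. The CCAAT box, often found beside E2F motifs in cell-cycle promoters, stood in 5 of the 7 genes' windows (37.4% of all windows). The MYC motif CACGTG stood in none of them (7.15% of all windows), and the RBPJ motif TGGGAA, read by the NOTCH-bound factor RBPJ, stood in 4 of the 7 (25.6% of all windows). A match describes the letters of these windows and is not a measured binding site.

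In KOPTK1 cells all 8 licensing genes fell with gSI. The helicase subunits MCM6, MCM7 and MCM5 and the loader CDT1 were 44.7% to 50.3% lower, MCM2, MCM3 and MCM4 were 29.1% to 38.7% lower, and the loader CDC6 was 17.1% lower. The gSI and DMSO libraries did not overlap for any of the 8 genes, as the plot of FPKM by treatment shows.

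**Figure D1:**
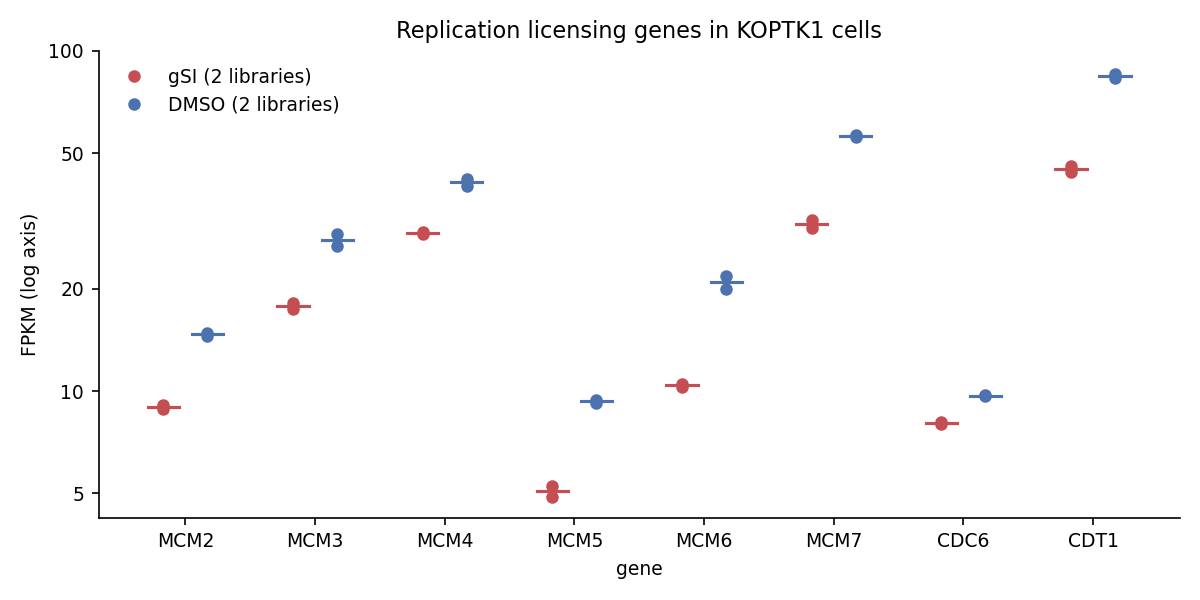
FPKM (log axis) of each licensing gene in the KOPTK1 libraries, with 1 point per library and a bar at the mean of each treatment (n = 2), gSI left of DMSO. Both gSI points lie under both DMSO points for every gene, and the gap is narrowest for CDC6.

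MCM6, a core subunit of the ring, had 10.3 and 10.5 FPKM with gSI and 21.8 and 20 FPKM with DMSO. Its log2 fold change was -0.94 (SE 0.0806, limma adjusted p = 1.98e-10), the largest fall of the 8. CDT1, the loader that geminin holds back, had 45.9 and 44.0 FPKM with gSI and 85.6 and 83.0 FPKM with DMSO. The CDT1 log2 fold change was -0.89 (SE 0.0837, limma adjusted p = 1.2e-09), and the gap between treatments was far wider than the gap between libraries of a treatment.

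MCM7, a subunit of the catalytic core, had 30.2 and 31.9 FPKM with gSI and 55.9 and 56.4 FPKM with DMSO, a log2 fold change of -0.83 (SE 0.0828). MCM5, which together with MCM2 forms the gate through which the ring opens on DNA, had 4.89 and 5.27 FPKM with gSI and 9.23 and 9.41 FPKM with DMSO, a log2 fold change of -0.76 (SE 0.0771). MCM2 had 8.84 and 9.13 FPKM with gSI and 14.5 and 14.8 FPKM with DMSO, a log2 fold change of -0.65 (SE 0.0783). Both gate subunits thus fell, MCM2 by 38.7% and MCM5 by 45.5%. MCM3 had 17.4 and 18.2 FPKM with gSI and 29.0 and 26.7 FPKM with DMSO, a log2 fold change of -0.62 (SE 0.0821). MCM4, which forms the catalytic core with MCM6 and MCM7, had 29.0 and 29.3 FPKM with gSI and 42.1 and 40.04 FPKM with DMSO, a log2 fold change of -0.48 (SE 0.0822, limma adjusted p = 1.96e-05). MCM4 fell least of the 6 subunits.

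CDC6, the ATPase that joins the origin recognition complex before the ring is loaded, had 7.98 and 8.09 FPKM with gSI and 9.68 and 9.71 FPKM with DMSO. Its log2 fold change was -0.24 (SE 0.0771, limma adjusted p = 0.00934). CDC6 was the only one of the 8 whose call depended on a single library: without gSI replicate 1 the limma adjusted p was 0.123 and without gSI replicate 2 it was 0.102, with log2 fold changes of -0.24 and -0.25.

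Falls were common among all genes in this comparison. Of 6679 genes tested, 53.1% were called in either direction, 30.3% were called lower and 42.4% had gSI libraries wholly under the DMSO libraries, so 8 of 8 in direction says less than the size of the change. The median log2 fold change of the licensing genes was -0.71, against -0.03 over all tested genes. Only 2.56% of genes lay at or under that median, 1.3% at or under the value of MCM6, and 22% at or under that of CDC6. These shares are on the log2(FPKM + 1) scale, which understates the change of low genes and so favours the licensing genes over lower ones. The origin firing gene GINS2 was 50.3% lower with a log2 fold change of -0.72, and MCM6 was 50.3% lower with -0.94. Licensing transcripts took 0.244% and 0.247% of recovered reads in the gSI libraries and 0.369% and 0.383% in the DMSO libraries. In bulk RNA, fewer cycling cells and less of each mRNA per cell cannot be told apart.

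Many other replication genes also fell with gSI, with list medians nearer to 0 than that of the licensing genes on the log2(FPKM + 1) scale. The medians of origin recognition (-0.19) and licensing control (-0.11) lay nearer to the -0.03 of all tested genes than to that of the licensing genes. Of the origin recognition complex, 3 of 6 subunits passed the filter of 1 FPKM. Human FPKM were scaled by lengths as long as whole genes, so in every human list this filter falls harder on long genes. ORC1, its cell-cycle-regulated subunit, fell with 2.62 and 2.55 FPKM with gSI and 5.08 and 4.60 FPKM with DMSO, a log2 fold change of -0.70 (SE 0.0751). ORC2 fell by 0.19 on the log2 scale, a call lost without DMSO replicate 1, without either gSI library or with no filter on low values, and ORC6 did not pass the test, with a log2 fold change of -0.03. Among 9 genes that control licensing, 3 fell and 1 rose, where 30.3% of all tested genes were called lower. The one with the largest fall was DTL, the substrate receptor of the ligase that destroys CDT1 on replicating DNA, with a log2 fold change of -0.70 (SE 0.0751). MCMBP, an MCM-binding protein, had a log2 fold change of -0.46. Geminin (GMNN), the inhibitor of CDT1, had 9.75 and 9.38 FPKM with gSI and 13.7 and 12.4 FPKM with DMSO, a log2 fold change of -0.41. FZR1, which directs the anaphase-promoting complex in G1, was higher with gSI by 0.18 on the log2 scale, a call lost without either gSI library or without DMSO replicate 1. MCM8, a relative of the helicase subunits that acts in recombination, fell with a log2 fold change of -0.37.

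Of 10 tested genes that fire licensed origins, 8 fell and 1 rose. GINS2, a subunit that joins the MCM ring in the active helicase, had a log2 fold change of -0.72, and MCM10, which is needed to start unwinding and is no part of the ring, had -0.70. CDC7, the kinase that phosphorylates the MCM ring, had 3.88 and 3.86 FPKM with gSI and 6.05 and 5.56 FPKM with DMSO, a log2 fold change of -0.48. DBF4, the activating subunit of CDC7, had a log2 fold change of -0.26, a call lost without DMSO replicate 1 or without gSI replicate 2. The gene that rose was RECQL4, a helicase related to a yeast firing factor, with a log2 fold change of 0.30, a call lost without DMSO replicate 2 or without gSI replicate 2. It was named after its value was seen, because it was the single gene to rise.

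Of 18 tested replication fork genes, 13 fell and none rose, and the list median was -0.37 on the log2 scale. The primase subunit PRIM1 had a log2 fold change of -0.83, and RFC4, a subunit of the clamp loader, had -0.66. RFC5 and the fork protein WDHD1 both had log2 fold changes of -0.56. PCNA, the sliding clamp, did not pass the test, with 45.2 and 45.0 FPKM with gSI and 51.3 and 48.2 FPKM with DMSO. Its log2 fold change of -0.14 turned to 0.090 under quantile scaling. Among 18 tested genes that control E2F, 11 fell and none rose. E2F1 had 5.92 and 6.25 FPKM with gSI and 7.86 and 8.22 FPKM with DMSO, a log2 fold change of -0.35. MYC, a NOTCH1 target in T-ALL that drives growth, had 4.75 and 4.75 FPKM with gSI and 17.2 and 16.1 FPKM with DMSO, a log2 fold change of -1.62. The cyclin CCND3 had -1.17, the E2F repressor RB1 had -0.67 and its relative RBL2 had -0.53. Of 9 G2/M genes 7 fell, and the list median was -0.32 on the log2 scale. AURKB and BUB1, which act at mitosis, had log2 fold changes of -0.56 and -0.53, CDK1 had -0.40, and TOP2A had -0.39, a call lost under quantile scaling.

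**Figure D2:**
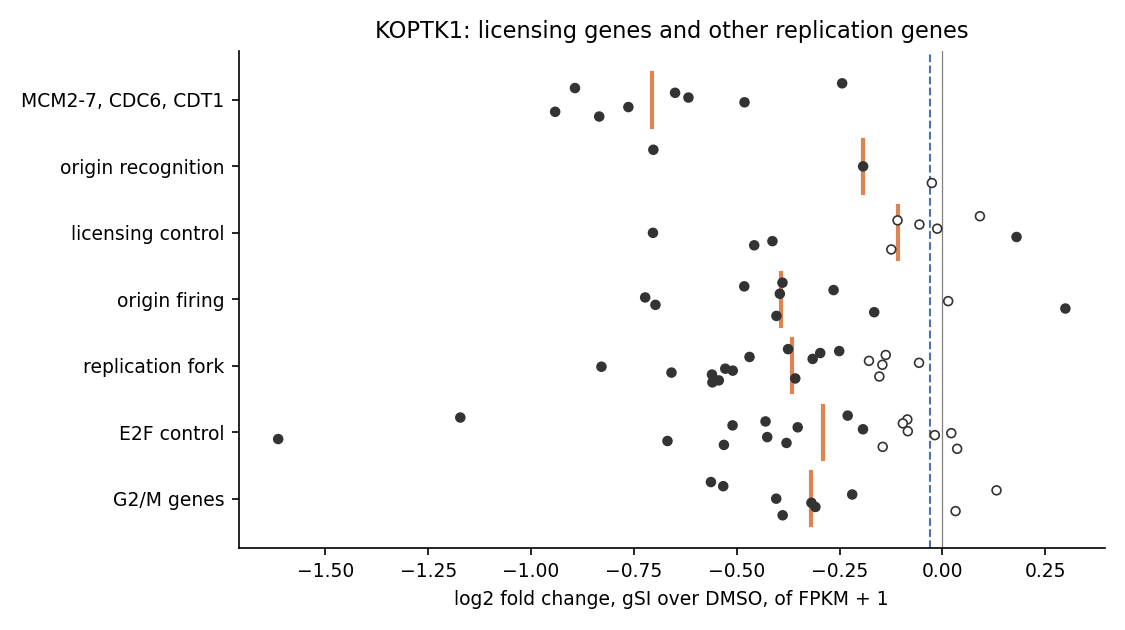
Log2 fold change of FPKM + 1, gSI over DMSO, with 1 point per tested gene. Filled points passed an adjusted p of 0.05, orange bars are list medians and the dashed line is the median of all genes (-0.03); the licensing genes, at a median of -0.71, lie left of the medians of the other replication and cell-cycle lists drawn.

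The licensing genes did not all change in the same proportion. The ratio of CDC6 to the geometric mean of the 6 MCM subunits was 0.5804 and 0.565 with gSI and 0.401 and 0.413 with DMSO, so CDC6 stood higher against the helicase with gSI. The ratio of CDT1 to the same mean was 3.34 and 3.07 with gSI and 3.54 and 3.53 with DMSO, lower in both gSI libraries by a smaller margin. Within the sum of the MCM subunits, MCM4 made up 28.8% and 28.1% with gSI and 24.4% and 23.9% with DMSO. MCM6 made up 10.2% and 10.1% with gSI and 12.6% and 11.9% with DMSO. The gene lengths behind the human FPKM set the level of both ratios but not their proportional change between treatments, and they enter both the level and the change of the MCM4 and MCM6 shares. No test was made of the ratios or shares.

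In the sorted mouse leukaemia the MCM subunits were the more abundant licensing transcripts and Cdc6 the scarcest. Mouse lengths recovered from the values ran between 2696 bp for Cdt1 and 4802 bp for Cdc6, none above the exons of its gene in GENCODE. They came to 0.48 of the exon length for Mcm2, 0.67 for Mcm7, and 0.85 (Mcm5) to 1 (Mcm4) for the others. FPKM can thus be compared only roughly between these genes, since the gene model behind the lengths is not given. The mean FPKM over all 8 libraries was 208 for Mcm6, 183 for Mcm2, 173 for Mcm5, 167 for Mcm3, 141 for Mcm7 and 137 for Mcm4, then 72.3 for Cdt1 and 17.4 for Cdc6. Mcm6 exceeded Mcm2, Mcm2 exceeded Mcm5, Mcm3 exceeded Mcm7, Mcm4 exceeded Cdt1 and Cdt1 exceeded Cdc6 in 8 of 8 libraries each. Mcm5 exceeded Mcm3 in 6 libraries and Mcm7 exceeded Mcm4 in 7, so these neighbours were not set apart in every library. Another gene length would shift a gene alike in all libraries, so these counts do not settle the order of genes with close levels. Each subunit kept between 12.2% and 21.5% of the MCM sum in every library. The highest library held between 1.53 times (Mcm3) and 2.17 times (Cdc6) the FPKM of the lowest.

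In the mouse genome (GRCm38) the 8 genes lie on 6 chromosomes. Mcm3 (chr1:20802968-20820312) and Mcm6 (chr1:128331590-128359664) share chromosome 1 but lie far apart, and both are on the minus strand. Mcm5 (chr8:75109569-75128439) and Cdt1 (chr8:122568015-122573554) share chromosome 8 on the plus strand. Mcm7 (chr5:138164583-138172422), Mcm2 (chr6:88883474-88898780) and Mcm4 (chr16:15623897-15637400) are on the minus strand, and Cdc6 (chr11:98907801-98923940) is on the plus strand. The annotated span of Mcm7 overlaps Ap4m1 by 421 bp and Cops6 by 64 bp on the other strand, and Cdt1 lies wholly inside Gm20388, a longer gene model on the same strand that was not listed. How such shared reads were counted is not given in the sources used here, so the levels of Mcm7 and Cdt1 carry that uncertainty.

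No gene passed the limma test in any diet comparison: 0 of 9943 tested genes had an adjusted p under 0.05, for 0, 0.4 or 0.8 against 8 g/kg or for a slope over the ranked diets. At an unadjusted p under 0.05 there were 1025 genes (10.3%) for 0 g/kg, 1059 (10.7%) for 0.4 g/kg, 433 (4.35%) for 0.8 g/kg and 1220 (12.3%) for the slope, and limma-voom on the recovered reads also called 0. The values of the licensing genes in mouse are therefore given as levels and differences with their errors, and none of them is called changed.

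Against 8 g/kg, the valine-free libraries had positive log2 differences for all 8 genes, as for 47.8% of all genes, with a median of 0.25 against -0.01 over all genes. Cdc6 differed most, and its valine-free libraries lay above all 6 others, a pattern whose share over all genes was not counted. Cdt1 differed least at 0 g/kg and was lowest at 0.4 and 0.8 g/kg. All 8 genes were highest in the TALL2 library at 0 g/kg, where 14.4% of all genes were highest, and all 8 were lowest in the TALL2 library at 0.8 g/kg, where 15.9% of all genes were lowest.

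**Figure D3:**
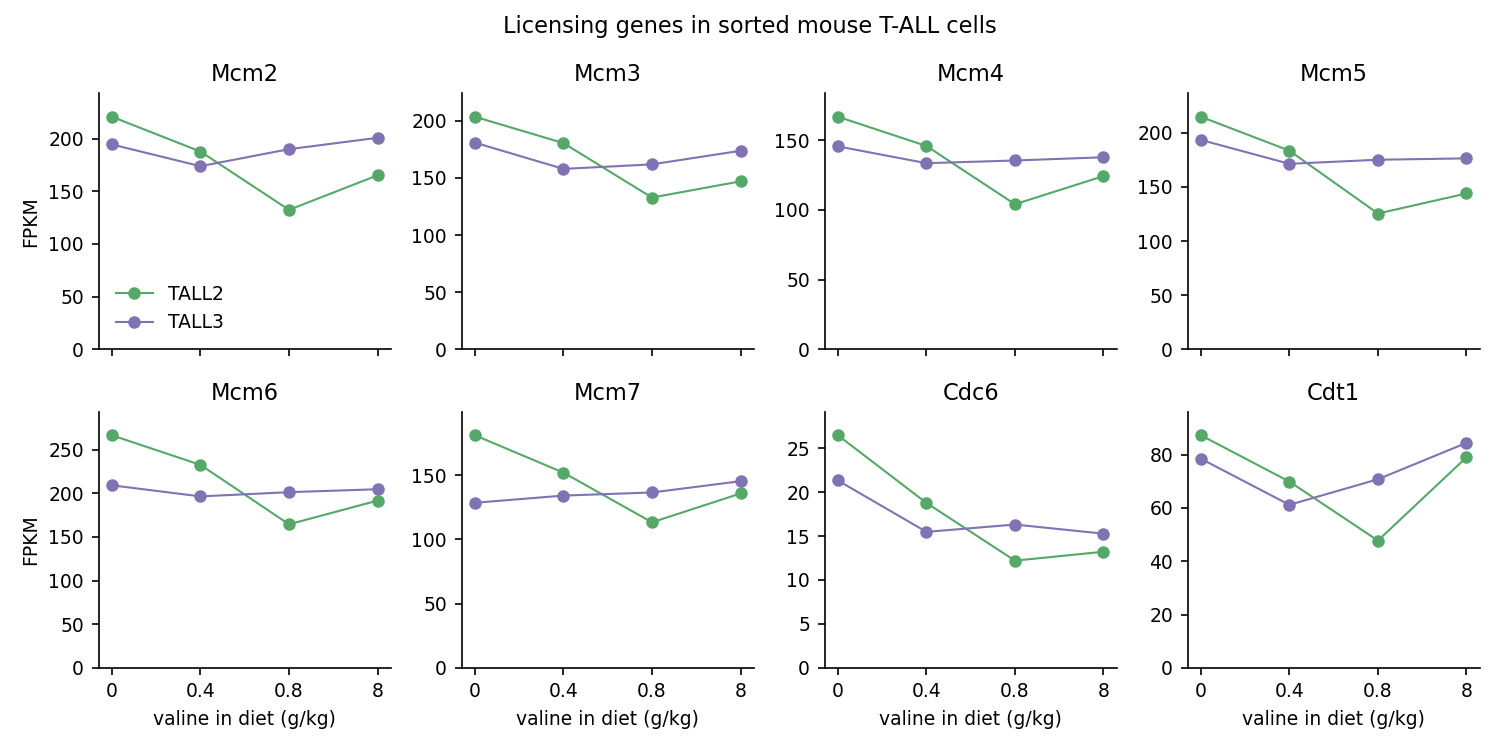
FPKM of the licensing genes by valine in the diet, with 1 point per library and lines joining libraries of the same name (TALL2 green, TALL3 purple). Every gene is highest in TALL2 at 0 g/kg and lowest in TALL2 at 0.8 g/kg, while the TALL3 values stay closer together.

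Cdc6 had 26.5 FPKM in TALL2 and 21.3 FPKM in TALL3 at 0 g/kg, 18.8 and 15.5 FPKM at 0.4 g/kg, 12.2 and 16.3 FPKM at 0.8 g/kg, and 13.2 and 15.3 FPKM at 8 g/kg. The valine-free mean was 1.68 times the control mean, with a log2 difference of 0.70 (SE 0.185, limma adjusted p = 0.371). Its slope was 0.24 log2 units per step of falling valine (SE 0.0621, limma adjusted p = 0.251). Cdc6 levels at 0.8 and 8 g/kg overlapped, and both libraries at 0.4 g/kg lay above both control libraries, the lower of them (15.5 FPKM) only just above the higher control (15.3 FPKM). The fitted log2 difference for 0.4 against 8 g/kg was 0.25 (SE 0.185).

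Cdt1 had a different course over the diets, with 87.3 FPKM in TALL2 and 78.5 FPKM in TALL3 at 0 g/kg, 69.9 and 61.2 FPKM at 0.4 g/kg, 47.7 and 70.8 FPKM at 0.8 g/kg, and 79.0 and 84.4 FPKM at 8 g/kg. Levels at 0 and 8 g/kg overlapped, with a log2 difference of 0.02 (SE 0.188), and both intermediate diets lay wholly under the control. The log2 difference was -0.32 (SE 0.188) for 0.4 against 8 g/kg and -0.48 (SE 0.188, limma adjusted p = 0.998) for 0.8 against 8 g/kg. Cdt1 was the only licensing gene with groups apart in the lower direction, 1 of 8 against 31.8% of all genes at 0.4 g/kg and 22.5% at 0.8 g/kg.

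Of the helicase subunits, Mcm5 had the largest valine-free difference. Mcm5 had 215 and 193 FPKM in TALL2 and TALL3 at 0 g/kg, 184 and 171 FPKM at 0.4 g/kg, 125 and 175 FPKM at 0.8 g/kg, and 144 and 176 FPKM at 8 g/kg. Its log2 difference for 0 against 8 g/kg was 0.35 (SE 0.181, limma adjusted p = 0.539), and its slope was 0.13 per step (limma adjusted p = 0.401). Mcm3 had 204 and 181 FPKM at 0 g/kg, 181 and 158 FPKM at 0.4 g/kg, 133 and 162 FPKM at 0.8 g/kg, and 147 and 174 FPKM at 8 g/kg. Mcm6 had 267 and 209 FPKM at 0 g/kg, 233 and 196 FPKM at 0.4 g/kg, 165 and 201.3 FPKM at 0.8 g/kg, and 192 and 205 FPKM at 8 g/kg. The valine-free levels of Mcm3 and Mcm6 lay just above the control levels, with log2 differences of 0.26 (SE 0.145) and 0.25 (SE 0.164).

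Mcm4 had 167 and 145 FPKM in TALL2 and TALL3 at 0 g/kg, 146 and 133 FPKM at 0.4 g/kg, 104 and 135 FPKM at 0.8 g/kg, and 124 and 138 FPKM at 8 g/kg. Its valine-free libraries also lay above its control libraries, with a log2 difference of 0.25 (SE 0.149). Mcm2 had 221 and 194 FPKM at 0 g/kg, 188 and 174 FPKM at 0.4 g/kg, 132 and 190.0 FPKM at 0.8 g/kg, and 165 and 200.7 FPKM at 8 g/kg. Mcm7 had 181 and 129 FPKM at 0 g/kg, 152 and 134 FPKM at 0.4 g/kg, 113 and 137 FPKM at 0.8 g/kg, and 136 and 145 FPKM at 8 g/kg. Groups overlapped for both, with log2 differences for 0 against 8 g/kg of 0.19 (SE 0.191) for Mcm2 and 0.12 (SE 0.182) for Mcm7.

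Valine-free and control libraries were thus fully apart for 5 of the 8 genes, Cdc6, Mcm3, Mcm4, Mcm5 and Mcm6, all higher, against 19.1% of all genes. Leaving out the valine-free TALL3 library put all 8 apart in the higher direction (32.5% of all genes). Leaving out the valine-free TALL2 library put 5 apart in the higher (38% of all genes) and 2 in the lower direction (39.6% of all genes). The median difference was 0.36 without the TALL3 library and 0.12 without the TALL2 library, so much of its size came from TALL2. For 0.4 against 8 g/kg, 6 of 8 differences were positive, as were 41% over all genes, with a median of 0.09 (-0.015 to 0.17 when 1 library was left out), and Cdc6 was the single gene apart in the higher direction, against 16.9% of all genes. For 0.8 against 8 g/kg all 8 log2 differences were negative, as were 60% of all genes, with a median of -0.13. That of Cdc6 was -0.0086, with mean levels of 14.3 FPKM at 0.8 g/kg and 14.2 FPKM at 8 g/kg, and it was positive with median-of-ratios scaling, quantile scaling or voom. Without the TALL2 library at 0.8 g/kg the median of the 8 was 0.036, and without the TALL3 library it was -0.32, so its sign rested on the TALL2 library.

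Libraries of the same name followed different courses. In TALL2 the levels of all 8 genes went up step by step over 0.8, 0.4 and 0 g/kg, as did those of 23.3% of all genes. In TALL3 none of the 8 did so, against 20.5% of all genes. Compared with the control of the same name, the valine-free TALL2 library was higher for 8 of 8 genes (46.6% of all genes), by 10.4% (Cdt1) to 100.3% (Cdc6) with a median of 36.4%. The valine-free TALL3 library was higher for 5 of 8 (48.9% of all genes), with differences between -11.6% (Mcm7) and 39.6% (Cdc6) and a median of 3.14%. Cdc6 was thus the gene with the largest excess under both names. Each name has 1 library per diet, so the difference between names was not tested.

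The comparisons with the 8 g/kg libraries share those 2 control libraries, and each is given beside the others. Over the wider pathway the valine-free differences were mostly positive for genes of DNA synthesis, with no gene called. Of all genes, 47.8% were positive and 19.1% had groups apart in the higher direction. Of 12 origin firing genes, 11 were positive at 0 g/kg, with a median of 0.30 (0.19 without the TALL3 library at 0 g/kg), and 7 had groups apart in the higher direction. Cdc7 had 15.2 and 15.0 FPKM at 0 g/kg and 11.1 and 10.1 FPKM at 8 g/kg, a log2 difference of 0.48 (SE 0.155, limma adjusted p = 0.415). Mcm10 had a log2 difference of 0.57 (SE 0.218), and Dbf4 had -0.10, which became 0.14 without the TALL2 library at 0 g/kg. Of 27 replication fork genes, 26 were positive with a median of 0.24, and 17 had groups apart in the higher direction. The polymerase subunits Pold3 and Pola2 had log2 differences of 0.44 (SE 0.13) and 0.39 (SE 0.116), and Pcna had 201.3 and 209 FPKM at 0 g/kg and 148 and 170.1 FPKM at 8 g/kg. Mcm8 had a log2 difference of 0.52 (SE 0.164) and Mcm9, its partner, had -0.19 (SE 0.143).

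The origin recognition complex and the control of licensing lay close to all genes at 0 g/kg. Their list medians were -0.02 and -0.06, against -0.01 over all genes, of which 47.8% were positive. Of 6 origin recognition genes, 2 were positive at 0 g/kg, Orc1 at 0.21 (SE 0.185) and Orc6 at 0.14 (SE 0.135). Orc1 had 14.9 and 10.3 FPKM at 0 g/kg and 11.1 and 10.01 FPKM at 8 g/kg, so the groups overlapped, and its difference was -0.039 without the TALL2 library at 0 g/kg. Of 9 licensing control genes, 3 were positive. Geminin (Gmnn) had 43.1 and 44.4 FPKM at 0 g/kg, 42.5 and 42.2 FPKM at 0.4 g/kg, 30.1 and 40.7 FPKM at 0.8 g/kg, and 34.3 and 37.6 FPKM at 8 g/kg, a valine-free log2 difference of 0.28 (SE 0.144). Fzr1 had a log2 difference of -0.35 (SE 0.13).

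Of 23 genes that control E2F, 17 were positive at 0 g/kg, with a median of 0.21. Groups were apart in the higher direction for 8 of them, against 19.1% of all genes. They were apart in the lower direction for 4, Myc, Ccnd1 (-0.81), E2f4 (-0.28) and Tfdp2 (-0.26), and the share of all genes apart in that direction is not given here. E2f1 had 48.0 and 39.8 FPKM at 0 g/kg, 29.8 and 25.5 FPKM at 0.4 g/kg, 22.6 and 30.3 FPKM at 0.8 g/kg, and 30.8 and 31.0 FPKM at 8 g/kg. As with Cdc6, its valine-free libraries lay above all 6 others, and the share of all genes with this pattern was not counted. The cyclin Ccne2, which acts at S-phase entry, had a log2 difference of 0.78 (SE 0.233, limma adjusted p = 0.406). Myc went the other way, with 161 and 112 FPKM at 0 g/kg and 267 and 222 FPKM at 8 g/kg, a log2 difference of -0.86 (SE 0.192, limma adjusted p = 0.358). At 0 g/kg the G2/M genes also differed in direction from the licensing genes: 1 of 8 was positive with a median of -0.30, against 47.8% of all genes. At 0.4 g/kg 8 of 8 were positive (median 0.38), as were 6 of 8 licensing genes and 41% of all genes. At 0.8 g/kg 8 of 8 were positive (median 0.24), against 40% of all genes, while the licensing median was -0.13. The sign of each of these medians at 0.8 g/kg changed when 1 library was left out. When 1 library was left out, the G2/M median ran between -0.54 and -0.11 at 0 g/kg, between 0.22 and 0.46 at 0.4 g/kg and between -0.043 and 0.52 at 0.8 g/kg, where it was negative without the TALL3 library of that diet. The cyclin Ccnb2 had a valine-free log2 difference of -1.04 (SE 0.292) and Cenpf, a kinetochore protein, had -0.78 (SE 0.217). Top2a had log2 differences of 0.58 at 0.4 g/kg and 0.42 at 0.8 g/kg (SE 0.156 each).

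**Figure D4:**
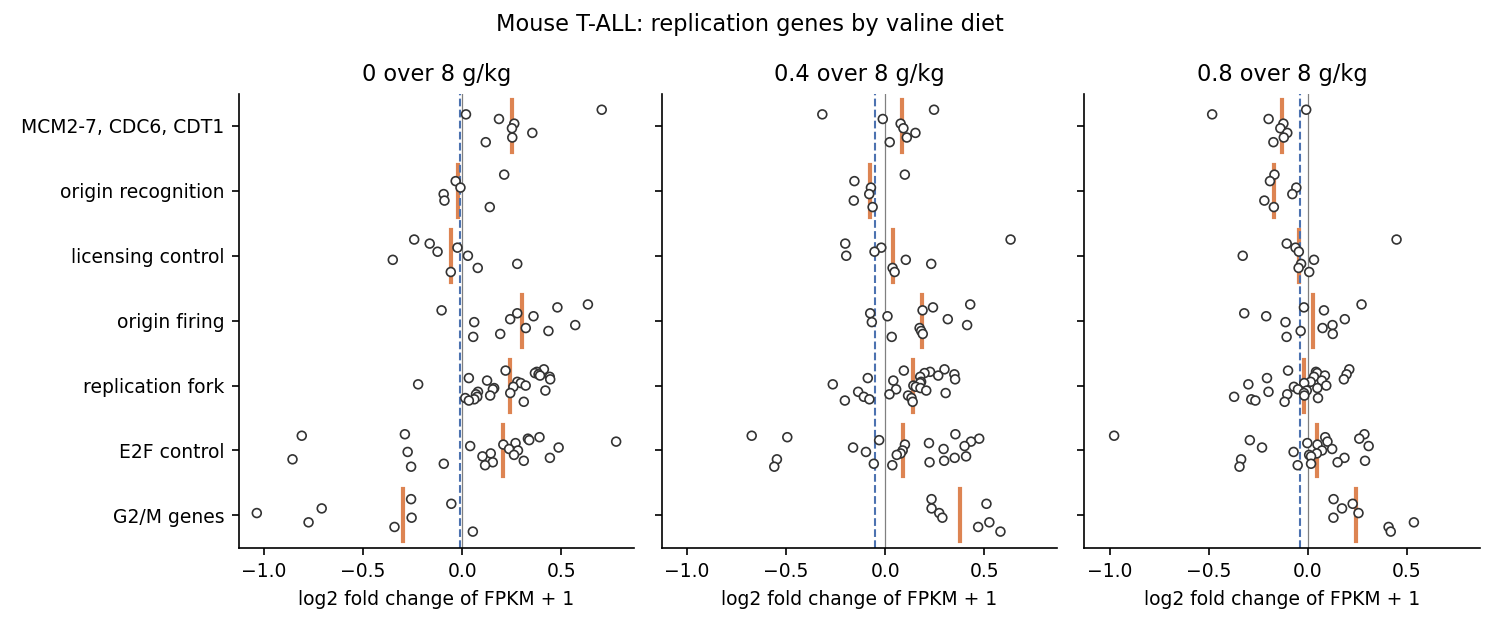
Log2 difference of FPKM + 1 of each diet over 8 g/kg, with 1 open point per tested gene, orange bars at list medians and a dashed line at the median of all genes. No gene passed an adjusted p of 0.05; at 0 g/kg the licensing genes have a median of 0.25 and the G2/M genes one of -0.30, and at 0.8 g/kg the licensing genes have a median of -0.13.

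The ratio of Cdc6 to the helicase was higher at every restricted diet than at 8 g/kg. Cdc6 over the geometric mean of the MCM subunits was 0.128 in TALL2 and 0.123 in TALL3 on the valine-free diet, 0.105 and 0.0969 for 0.4 g/kg, 0.0958 and 0.099 for 0.8 g/kg, and 0.0882 and 0.0892 for the control. The same ratio for Cdt1 was 0.422 and 0.454 on the valine-free diet, 0.392 and 0.383 for 0.4 g/kg, 0.375 and 0.429 for 0.8 g/kg, and 0.527 and 0.493 for the control. All 6 restricted libraries lay above the control for Cdc6 and under it for Cdt1. The TALL2 library at 0.8 g/kg, which was lowest for all 8 genes, also had the lowest Cdt1 ratio of the 8 libraries. At 0.8 g/kg mean Cdc6 was 14.3 FPKM against 14.2 FPKM at 8 g/kg, while the means of all 6 MCM subunits were lower. In KOPTK1 CDC6 and the MCM subunits all fell with gSI, CDC6 least. No test was made of the ratios. The share of all genes whose ratio to the MCM mean differed in this way was not counted.

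**Figure D5:**
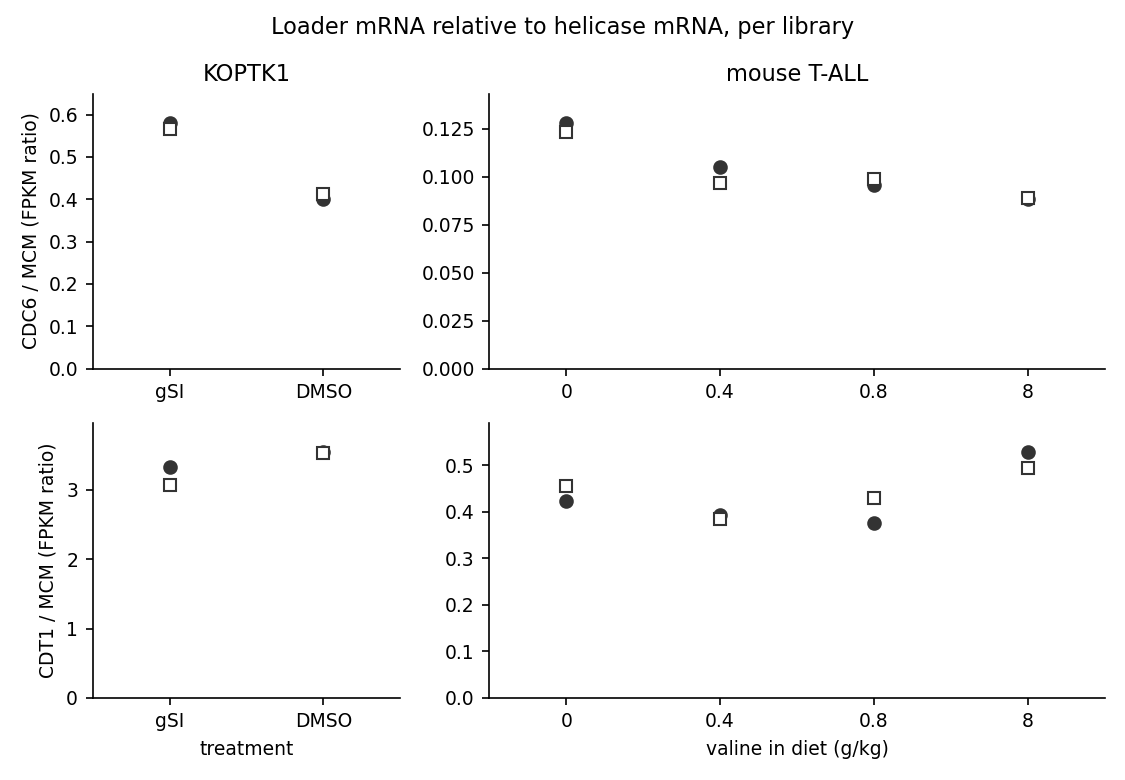
Ratio of CDC6 FPKM (top) and CDT1 FPKM (bottom) to the geometric mean of the 6 MCM subunits, with 1 point per library; filled circles are KOPTK1 replicate 1 and TALL2, open squares KOPTK1 replicate 2 and TALL3. The CDC6 ratio is higher with gSI than with DMSO and at 0, 0.4 and 0.8 g/kg than at 8 g/kg, and the CDT1 ratio is lower in the same comparisons.

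Transcripts of other blood cells differed between the sorted mouse libraries. Of 12 neutrophil genes 11 were listed, and they summed to 547 and 307 FPKM at 0 g/kg, 12.2 and 72.7 FPKM at 0.4 g/kg, 13.7 and 6.69 FPKM at 0.8 g/kg, and 0.753 and 8.28 FPKM at 8 g/kg. S100a8, Elane, Mmp8, Camp and Retnlg were at 0 in the TALL2 control library. Of 11 erythroid genes 8 were listed, and they summed to 2.20 and 5.15 FPKM at 0 g/kg, 55.8 and 39.5 FPKM at 0.4 g/kg, 40.03 and 28.2 FPKM at 0.8 g/kg, and 99.0 and 268 FPKM at 8 g/kg. The 4 adult globin genes and Alas2 were at 0 in the TALL2 library at 0 g/kg. The 4 listed macrophage genes of 7 summed to 5.08 to 15.7 FPKM over all libraries, and Cd74, the 1 listed B-cell gene of 6, ran between 1.498 FPKM (TALL2 at 8 g/kg) and 73.0 FPKM (TALL3 at 0 g/kg). The part of these cells in the licensing values was not tested. In KOPTK1 no neutrophil or macrophage marker was listed. Of the erythroid list EPOR was listed, higher with gSI by 0.19 on the log2 scale. Of the B-cell list CD79B, under the filter of 1 FPKM, and CD79A were listed. CD79A had a log2 fold change of -1.12, with 3.54 and 4.07 FPKM with gSI and 9.48 and 9.35 FPKM with DMSO. Of all genes tested in KOPTK1, 53.1% were called.

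Among the genes whose profiles over the 8 mouse libraries came closest to the mean profile of the licensing genes were Prim1, Plod3, Uhrf1 and Atad5, of 9935 tested genes outside the group. Prim1, the primase subunit, stood at a root mean square distance of 0.0656 on the log2 scale, and Uhrf1, which maintains DNA methylation at replication, at 0.0721. The licensing genes themselves lay between 0.0319 (Mcm4) and 0.158 (Cdc6). In KOPTK1 STAT5B, SLFN13, LSM2 and GBP4 were among the closest of 6671 genes, at 0.00826 to 0.0146, but with 4 libraries this likeness mostly restates a fall of similar size, with log2 fold changes of -0.69 to -0.65.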

How the data were processed

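RNA was measured in 12 libraries, 4 human and 8 mouse, with 2 per group. The authors deposited FPKM per gene and library in 1 table per species. The tools that the authors list, per the submitters' processing notes, are edgeR and STAR, and the builds are mm10 and hg19, with no roles or versions. Per the labels' protocols the library kit was directional. The sources used here do not give the gene model, gene length, counter or use of strand. Whole reads and a gene length were recovered from the FPKM steps, and 95.8% of human lengths and 99.9% of mouse lengths came out whole to within 0.01 bp. In all 4 human libraries 1 gene (ENSG00000241781) took the largest share of summed FPKM. Its share was 28.1% and 13.2% in DMSO replicates 1 and 2, and 20.6% and 15.0% in gSI replicates 1 and 2.

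Tests covered the genes that averaged 1 FPKM or more, 6679 human and 9943 mouse, all 8 licensing genes among them in each. The test was limma 3.58.1 (R 4.3.3) on log2(FPKM + 1) fitted with a variance trend; p-values were two-sided and Benjamini-Hochberg adjusted over all tested genes, with a threshold of 0.05, and the fit was checked on simulated data. Fold changes are on that log2(FPKM + 1) scale, which understates the change of low genes. Mouse diets were fitted together, and the slope used diets ranked by falling valine. Percent changes and ratios are of mean FPKM. Groups are apart where every library of one lies beyond every library of the other. Named genes are the 8 members, up to 4 called genes by size of change per list (the 2 smallest p where none passed), and GMNN, ORC1, DBF4, CDC7, E2F1, MYC and PCNA. For likeness, the rule takes the 5 nearest genes by root mean square distance of centred profiles; 1 of them in each species is not reported here. The members and lists were chosen with earlier results of these data known. Alternatives were pseudocounts of 0.1 and 5, no filter or one at 5 FPKM, quantile or median-of-ratios scaling, no trend, a replicate block, only the diets compared, and leaving out each library. The depth of the mouse libraries, down to 14222895 reads, covers counting error only. Replicate libraries differed beyond counting noise in every group. Values were handled with pandas 2.3.3 in Python 3.11.15.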

Additional observations from a re-analysis of the deposited data

How the results depend on the processing

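All 8 licensing genes stayed lower with gSI under all alternatives, and all 8 stayed called except CDC6, whose call was lost without either gSI library. Their median log2 fold change of -0.71 was -0.78 with a pseudocount of 0.1, -0.52 with a pseudocount of 5, -0.59 with quantile scaling, -0.78 with voom on recovered reads, and between -0.74 and -0.67 when 1 library was left out. Human genes called, 3547 in all, numbered 5374 with no filter, 1139 with a filter at 5 FPKM, 3679 with voom, and 2207 to 3555 when 1 library was left out, lowest without gSI replicate 2. PCNA turned to 0.090 with quantile scaling. The replicate block gave 3705 human genes called with all 8 licensing genes among them, and 0 in mouse, and changed no other call. Same-numbered libraries deviated together with a correlation of 0.258 in KOPTK1. In mouse it was 0.743 for 8 and 0.8 g/kg, 0.566 for 8 and 0 g/kg, and 0.425 for 0.4 and 0 g/kg. It was 0.363 for 0.8 and 0 g/kg, 0.059 for 8 and 0.4 g/kg, and -0.174 for 0.8 and 0.4 g/kg. The labels do not explain TALL2 and TALL3, so the main test did not pair the libraries, and a shared source was not tested. Voom and a slope without the 0.4 g/kg libraries were added after seeing the data.

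When 1 library was left out, the number of the 8 genes apart ranged for 0 against 8 g/kg over 5 to 8 higher and 0 to 2 lower, for 0.4 against 8 g/kg over 1 to 6 higher and 1 to 2 lower, and for 0.8 against 8 g/kg over 0 to 1 higher and 1 to 8 lower; with 1 library left in a group, more genes are apart by construction. With median-of-ratios scaling 2 genes were apart in the higher direction at 0.4 g/kg. Signs changed at 0 g/kg for Mcm7 (-0.13 to 0.36), Cdt1 (-0.057 to 0.094), Orc1 (-0.039 to 0.46) and Dbf4 (-0.35 to 0.14). At 0.4 g/kg they changed for Mcm3 (-0.041 to 0.20), Mcm6 (-0.012 to 0.23), Mcm7 (-0.066 to 0.11) and Mcm2 (-0.15 to 0.13), where the value for Mcm7, mouse 0.4 against 8 g/kg, was -2.87e-05 with quantile scaling and Mcm2 was 0.046 with median-of-ratios scaling. At 0.8 g/kg they changed for Mcm3 (-0.27 to 0.018), Mcm6 (-0.27 to 0.023), Mcm2 (-0.46 to 0.061), Mcm5 (-0.34 to 0.14), Mcm4 (-0.33 to 0.050) and Cdc6 (-0.20 to 0.19), and for the median of all 8 (-0.32 to 0.036). Cdc6 at 0.8 g/kg was 0.034 with median-of-ratios scaling, 0.039 with quantile scaling and 0.0065 with voom. Slopes changed sign for Mcm7 (-0.011 to 0.10) and Cdt1 (-0.037 to 0.086), and genes called by slope ranged over 0 to 2. The cause of these changes was not tested beyond the library left out. Depth was at least 970 reads for each licensing gene in every mouse library.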
